A study of Mus musculus with 9 samples.

Results

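The genes described here are the FGF receptors *Fgfr1*, *Fgfr2*, *Fgfr3*, *Fgfr4* and *Fgfrl1*, and 5 inhibitors of receptor signalling, the Sprouty genes *Spry1*, *Spry2* and *Spry4* and the Spred genes *Spred1* and *Spred2*. They were taken by gene symbol from the count table of a MuSC RNA sequencing series, 10 genes of 25655, and all 10 had at least 1 read in each of the 9 libraries. MuSCs are the stem cells of skeletal muscle. QSCs (3 libraries) came without culture from Pax7-YFP males of 15 to 16 weeks, which carry YFP on both *Pax7* alleles. The MyoD-tdTomato low cells and the MyoD-tdTomato high cells (3 libraries each) were MuSCs from MyoD-KI mice, in which tdTomato is joined through a P2A peptide to the end of the MyoD coding sequence. The study describes these mice as heterozygous for the knock-in. These cells were isolated from mice of 10 to 16 weeks, cultured for 5 days and parted by FACS on tdTomato. All groups therefore carry a reporter knocked into a myogenic gene, and the fluorescence that parts low from high cells follows MyoD by construction. QSCs differ from the cultured cells in mouse line, isolation and culture, which cannot be told apart. The study's methods call the libraries technical replicates, so p-values measure only the spread between libraries.

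On GRCm39 the table places *Fgfr1* at chr8:26003670-26065734, *Fgfr3* at chr5:33879018-33894412, *Fgfr4* at chr13:55300453-55316572, *Fgfrl1* at chr5:108840248-108854790, *Spry1* at chr3:37694096-37698747, *Spry2* at chr14:106129381-106134253, *Spred1* at chr2:116951855-117012760 and *Spred2* at chr11:19874375-19974026. *Fgfr3* overlaps *G630022F23Rik* and *Spry1* overlaps *Gm42922*, each on the opposite strand. Whether the counting used strand is not stated, so reads of these partners cannot be told apart. *Fgfr2* is described with its values.

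FGFs are secreted growth factors that bind tyrosine kinase receptors together with heparan sulfate chains on the cell surface. The bound receptor activates Ras and the kinases Raf, MEK and ERK through adaptor proteins, and in MuSCs this pathway is known for driving entry into the cell cycle and for holding back differentiation. Sprouty and Spred proteins are induced by or act on the same pathway and dampen it: Sprouty proteins act between receptor and ERK, and Spred proteins bring neurofibromin to Ras, which it switches off. *Spry1* is known in mouse MuSCs for the return to and keeping of quiescence, and it is one of the genes the study displayed as marking quiescence. Its level in these samples is therefore not independent evidence of that role.

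The start sites of 8 of the 10 genes were matched by symbol in RefSeq's promoter windows on GRCm38.p6. The 250 bases before the start are shown for 4 genes, because *Spry1*, *Fgfr4* and *Spred1* were higher in QSCs and *Fgfrl1* was lower. These windows are not on the build of the expression table, which is GRCm39. Capitals mark CCGGAA, the core of ETS factor sites. The windows lie on the plus strand at chr3:37639697-37639946 (*Spry1*), chr13:55152568-55152817 (*Fgfr4*), chr2:117120821-117121070 (*Spred1*) and chr5:108693979-108694228 (*Fgfrl1*).
Spry1: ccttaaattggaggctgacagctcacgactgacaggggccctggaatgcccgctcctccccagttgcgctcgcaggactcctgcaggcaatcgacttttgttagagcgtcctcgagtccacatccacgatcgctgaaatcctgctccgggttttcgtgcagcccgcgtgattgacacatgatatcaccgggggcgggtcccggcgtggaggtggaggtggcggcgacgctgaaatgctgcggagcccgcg
Fgfr4: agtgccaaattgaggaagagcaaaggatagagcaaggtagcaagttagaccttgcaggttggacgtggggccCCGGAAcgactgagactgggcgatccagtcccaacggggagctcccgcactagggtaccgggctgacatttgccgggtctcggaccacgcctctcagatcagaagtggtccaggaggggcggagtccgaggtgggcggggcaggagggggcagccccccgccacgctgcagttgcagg
Spred1: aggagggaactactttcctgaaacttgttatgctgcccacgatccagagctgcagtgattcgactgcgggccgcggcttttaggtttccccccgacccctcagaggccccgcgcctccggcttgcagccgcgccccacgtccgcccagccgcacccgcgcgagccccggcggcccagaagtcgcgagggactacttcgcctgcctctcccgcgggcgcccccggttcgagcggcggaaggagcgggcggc
Fgfrl1: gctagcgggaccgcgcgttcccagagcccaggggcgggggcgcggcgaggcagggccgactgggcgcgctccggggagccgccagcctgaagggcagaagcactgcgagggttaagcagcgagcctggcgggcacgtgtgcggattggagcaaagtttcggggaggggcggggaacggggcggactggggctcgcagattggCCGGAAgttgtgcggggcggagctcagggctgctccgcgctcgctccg
CCGGAA occurred, on either strand, in 2 of the 8 matched genes, *Fgfr4* and *Fgfrl1*. It was in 2 of the 9 windows of these 8 genes and in 12.03% of all 32851 windows of that length. The E-box CAGCTG, which MyoD can bind, occurred in 1 of the 8 genes, *Fgfr3*. It was in 1 of the 9 windows and in 13.0% of all windows. The AP-1 motif TGANTCA occurred in 0 of the 9 windows of the 8 genes and in 6.75% of all windows. The *Spry1* and *Fgfr4* windows held 62.4% and 64.0% G and C, and those of *Spred1* and *Fgfrl1* 70.8% and 73.6%, against a median of 52.4% over all windows. These are matches of letters and not measured sites.

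Library totals ranged from 7514633 to 18077031 counts in QSCs and from 24471782 to 26782872 in cultured cells. The share of mitochondrial counts was 11.4% to 19.0% in QSCs and 3.92% to 4.95% in cultured cells. The mean TPM of 1601 odorant, pheromone and taste receptor genes was 0.191, 0.988 and 0.215 in QSCs replicates 1, 2 and 3 and 0.0072 to 0.0118 in cultured libraries. QSCs replicate 2 therefore stood apart, with the fewest counts and the most signal in these receptor genes. *Myod1* was at 485 to 664 TPM in QSCs, 941 to 1039 in low and 1839 to 1902 in high libraries. Between low and high cells this was the order of the tdTomato reporter, which QSCs do not carry. In CPM (counts scaled by library size and TMM factors), *Myod1* in QSCs (534 to 897) overlapped with low libraries (700 to 729). *Pax7* was at 67.6 to 95.8 TPM in QSCs, 64.0 to 66.8 in low and 26.4 to 39.6 in high libraries. In CPM, *Pax7* stood further apart, at 274 to 364 in QSCs, 141 to 151 in low and 67.2 to 94.8 in high libraries. *Calcr*, a marker of quiescent MuSCs, was at 56.5 to 83.3 TPM in QSCs and at most 0.386 in cultured libraries. Summed markers of endothelial cells, fibroblasts and Schwann cells were also higher in QSCs, though *Col3a1* (179 TPM in QSCs, 256 in low cells) and *Sox10* (1.74 and 4.61 TPM) of these lists had higher means in low cells. The 6 endothelial markers summed to 333 to 612 TPM in QSCs, 18.4 to 32.6 in low and 2.79 to 4.49 in high libraries. The 6 fibroblast markers summed to 691 to 986, 238 to 306 and 151 to 181 TPM, and the 5 Schwann cell markers to 54.1 to 100.2, 5.10 to 16.01 and 2.13 to 2.69 TPM in the same order. The 5 myeloid markers summed to 56.5 to 97.4, 37.2 to 64.6 and 5.66 to 14.97 TPM, and overlapped between QSCs and low cells. Each of these lists was detected in every group, and *Ptprc* was at 0 in the high libraries. The 7 markers of differentiating myocytes summed to 323 to 678 TPM in QSCs, 961 to 3317 in low and 11742 to 22454 in high libraries. The 5 pericyte and smooth muscle markers summed to 318 to 414, 356 to 841 and 1308 to 2401 TPM and the 3 tenocyte markers to 38.2 to 52.8, 175 to 198 and 284 to 319 TPM. In low and high cells, *Acta2* (mean 606 and 1870 TPM) and *Scx* (184 and 298 TPM) held most of these sums. *Cspg4* was also higher in cultured cells. *Rgs5* (68.4, 4.12 and 2.83 TPM in QSCs, low and high cells), *Kcnj8*, *Tnmd* and *Mkx* had their highest means in QSCs, and *Abcc9* was lowest in low cells. The part of these cells in the results was not tested. In bulk libraries, fewer cells of a type and less RNA per cell cannot be told apart.

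Levels of different genes were compared as TPM, which corrects for transcript length. *Fgfr4* had the highest level of the 10 genes in every group, at 327 ± 50.5 TPM (SD, n = 3) in QSCs, 151 ± 44.3 in low and 166 ± 12.2 in high cells. *Fgfr1* followed in QSCs at 249 ± 39.7 TPM and in low cells at 117 ± 7.87 TPM. The ranges of both receptors did not overlap in QSCs or in high cells and overlapped in low cells. In QSCs the order went on with *Spry1* at 129 ± 17.1, *Spry2* at 106 ± 10.6, *Spred1* at 34.6 ± 7.31, *Spry4* at 20.0 ± 6.75 and *Spred2* at 19.0 ± 3.42 TPM. *Spry1* and *Spry2* overlapped, as did *Spry4* and *Spred2*. *Fgfrl1* at 6.66 ± 2.12 TPM, *Fgfr3* at 2.50 ± 0.901 and *Fgfr2* at 0.677 ± 0.919 closed the order, and *Fgfr3* and *Fgfr2* overlapped. In high cells the order differed: *Spry2* came after *Fgfr4* at 110 ± 2.82 TPM and overlapped with *Fgfr1* at 106 ± 5.06, while *Fgfrl1* at 31.9 ± 1.47 and *Spry1* at 28.7 ± 3.47 came next and overlapped too. In low cells *Spred2* at 35.7 ± 7.85, *Spred1* at 26.9 ± 1.86, *Spry1* at 26.6 ± 7.30 and *Fgfrl1* at 25.98 ± 1.49 TPM each overlapped with the next.

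**Figure D1:**
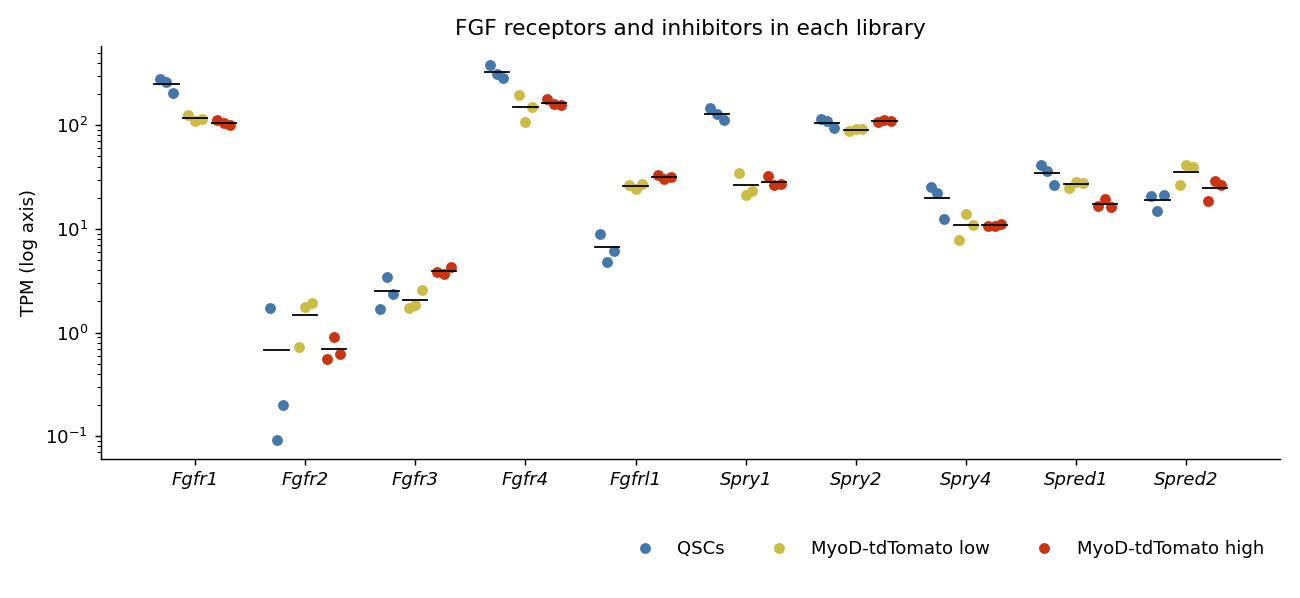
TPM of the 10 genes (log axis) in each library, with 3 points per group (QSCs blue, MyoD-tdTomato low yellow, MyoD-tdTomato high red) and black lines for group means. *Fgfr4* has the highest mean in every group, from 151 to 327 TPM, and *Fgfr2* scatters most in QSCs, from 0.0925 to 1.74 TPM.

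To ask how these genes differ between freshly isolated and cultured MuSCs, QSCs were set against each cultured group. Against high cells, 6 of the 10 genes were higher in QSCs and 1 was lower, where 26.4% of all 12614 genes tested were called higher and 24.6% lower. Against low cells, again 6 were higher and 1 was lower, where 26.5% of all genes were called higher and 22.6% lower. The higher genes were *Fgfr1*, *Fgfr4*, *Spry1*, *Spry2*, *Spry4* and *Spred1* in both comparisons, and the lower gene was *Fgfrl1*. *Fgfr2*, *Fgfr3* and *Spred2* were not called. The median log2 fold change of the 10 genes was 1.09 against high and 1.10 against low cells, and that of all genes tested was 0.02 and 0.07. Called means an adjusted p under 0.01 in edgeR's quasi-likelihood test with Benjamini-Hochberg adjustment and a fold change over 1.5. Both comparisons use the same QSCs libraries. Without QSCs replicate 2 the counts were 6 higher and 1 lower in both comparisons. Against high cells they were 5 and 1 without QSCs replicate 1 or 3, and against low cells 7 and 1 without QSCs replicate 1.

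**Figure D2:**
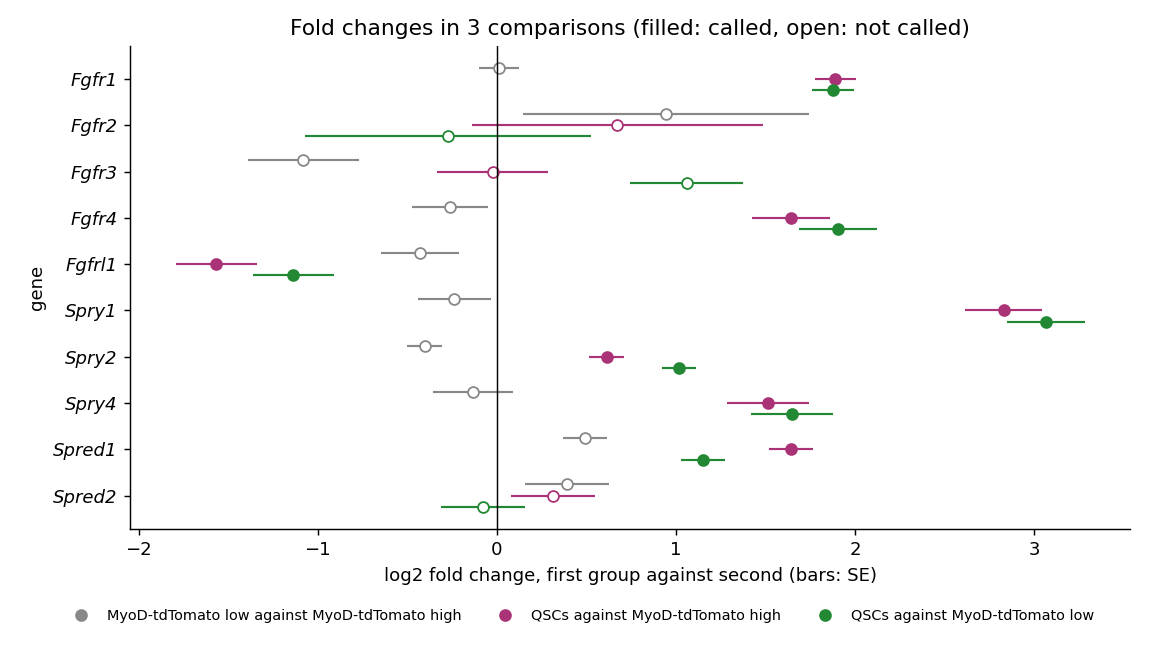
Log2 fold changes of the 10 genes in 3 comparisons from edgeR, with bars for the SE, filled points for called genes and open points for genes not called. *Spry1* has the largest difference in both QSCs comparisons, at 2.83 and 3.07, *Fgfrl1* is the gene called lower in QSCs, and no gene is called between low and high cells.

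*Fgfr1*, the receptor that carries much of the FGF response of myoblasts, was at 1042, 897 and 908 CPM (counts scaled by library size and TMM factors) in QSCs replicates 1 to 3. It was at 288, 238 and 250 CPM in low libraries and at 277, 245 and 246 CPM in high libraries. All QSCs libraries were above all cultured ones, and the cultured groups overlapped. The log2 fold change was 1.89 ± 0.12 (SE) against high cells (adjusted p = 2.4e-07, edgeR) and 1.88 ± 0.12 against low cells (adjusted p = 2.8e-07).

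*Fgfr4* is the FGF receptor whose expression is most typical of the myogenic lineage. It was at 828, 609 and 740 CPM in QSCs, at 259.8, 134 and 188 CPM in low libraries and at 259.3, 216 and 223 CPM in high libraries. QSCs lay above both cultured groups with no overlap, and MyoD-tdTomato low replicate 1 lay above the others of its group. The log2 fold change was 1.64 ± 0.22 against high (adjusted p = 6.3e-05, edgeR) and 1.90 ± 0.22 against low cells (adjusted p = 2.5e-05).

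*Fgfr2* and *Fgfr3*, which are best known from epithelia and from cartilage and bone, were barely expressed. *Fgfr3* was at 5.04, 9.48 and 8.38 CPM in QSCs, at 3.16, 3.23 and 4.51 CPM in low libraries and at 7.74, 6.89 and 8.48 CPM in high libraries. In CPM, QSCs overlapped with high libraries and lay above low libraries. In TPM, QSCs (1.68 to 3.47) overlapped with low libraries (1.71 to 2.59) and lay under high libraries (3.65 to 4.34). The highest QSCs value was in replicate 2, the library with the most signal in odorant, pheromone and taste receptors. The log2 fold change of *Fgfr3* was -0.02 ± 0.31 against high cells and 1.06 ± 0.31 against low cells, not called (adjusted p = 0.0124, edgeR). It was called against low cells by DESeq2 at 1.02 (adjusted p = 0.0032) and without QSCs replicate 1 at 1.29 (adjusted p = 0.0022), and the adjusted p over all alternatives ran from 0.0022 to 0.52. The sign against high cells turned to 0.21 without QSCs replicate 1, to 0.044 without MyoD-tdTomato high replicate 3 and to 0.083 with upper-quartile factors.

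*Fgfr2* had 88, 2 and 10 counts in QSCs, 44, 100 and 115 in low libraries and 33, 56 and 36 in high libraries. QSCs replicate 1 held nearly all of the QSCs counts, and *Fgfr2* in QSCs replicates 2 and 3, at 0.0925 and 0.201 TPM, was under the mean TPM of the odorant, pheromone and taste receptor genes of the same libraries. Its fold change was not called in either comparison (0.67 ± 0.81 and -0.27 ± 0.80 on the log2 scale). Without QSCs replicate 1 it was -1.37 against high and -2.31 against low cells (adjusted p = 0.0824 and 0.0103, edgeR), and without QSCs replicate 2 it was 0.21 against low cells. The table gives *Fgfr2* a region of 2960899 bases on chromosome 7 (129764181 to 132725079, GRCm39), which overlaps 38 other genes, 21 of them on the same strand. Its counts are therefore uncertain.

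*Fgfrl1* binds FGFs but lacks the kinase domain, and it moved the other way. It was at 15.7, 7.73 and 12.9 CPM in QSCs, at 28.5, 24.8 and 27.7 CPM in low libraries and at 39.3, 33.8 and 36.1 CPM in high libraries. The 3 groups did not overlap. QSCs were lower by 2.96-fold than high cells (log2 fold change -1.57 ± 0.23, adjusted p = 0.00013, edgeR) and by 2.20-fold than low cells (-1.14 ± 0.23, adjusted p = 0.0012). Relative to the summed TPM of the 4 kinase receptors, *Fgfrl1* was at 1.35%, 0.837% and 1.24% in QSCs, at 8.17%, 11.04% and 10.1% in low libraries and at 11.3%, 11.4% and 11.9% in high libraries.

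*Spry1* had the largest difference of the 10 genes. It was at 277, 219.8 and 253 CPM in QSCs, at 40.6, 23.4 and 25.6 CPM in low libraries and at 41.2, 31.4 and 33.0 CPM in high libraries. QSCs stood far above the cultured cells, whose groups overlapped. QSCs were higher by 7.10-fold than high cells (log2 fold change 2.83 ± 0.21, adjusted p = 1.1e-06, edgeR) and by 8.37-fold than low cells (3.07 ± 0.22, adjusted p = 7.5e-07).

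*Spry2*, a Sprouty protein expressed widely and induced by growth factors, was at 155, 135 and 152 CPM in QSCs, at 73.7, 72.3 and 72.5 CPM in low libraries and at 96.6, 95.8 and 96.8 CPM in high libraries. The 3 groups did not overlap in CPM. The log2 fold change was 0.61 ± 0.10 against high (adjusted p = 0.00021, edgeR) and 1.02 ± 0.10 against low cells (adjusted p = 6.1e-06). The fold against high cells, 1.53, was just over the threshold of 1.5. It fell under it without QSCs replicate 1 (log2 fold change 0.57) or QSCs replicate 3 (0.58), with filterByExpr (0.54), with no filter (0.45), and in a fit of only those groups (0.56). On TPM as deposited the sign turned to -0.052.

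*Spry4*, another Sprouty protein of the same feedback, was at 78.6, 62.0 and 45.8 CPM in QSCs, at 14.998, 25.0 and 19.6 CPM in low libraries and at 22.1, 20.8 and 22.5 CPM in high libraries. QSCs did not overlap with either cultured group, though QSCs replicate 3 was the lowest of its group. The log2 fold change was 1.51 ± 0.23 against high (adjusted p = 0.00017, edgeR) and 1.65 ± 0.23 against low cells (adjusted p = 0.00010).

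*Spred1*, which binds neurofibromin, was at 181, 145 and 140.2 CPM in QSCs, at 67.2, 71.7 and 71.3 CPM in low libraries and at 48.9, 53.8 and 46.7 CPM in high libraries. The 3 groups did not overlap in CPM. In TPM, QSCs (26.7 to 41.1) overlapped with low libraries (24.8 to 28.1). The log2 fold change was 1.64 ± 0.13 against high (adjusted p = 1.1e-06, edgeR) and 1.15 ± 0.12 against low cells (adjusted p = 1.5e-05). Its relative *Spred2* was at 62.2, 41.1 and 75.7 CPM in QSCs, 49.4, 71.6 and 68.5 CPM in low libraries and 37.4, 55.0 and 52.1 CPM in high libraries. All groups of *Spred2* overlapped, and its log2 fold change was 0.31 ± 0.24 against high and -0.08 ± 0.23 against low cells (adjusted p = 0.26 and 0.79, edgeR).

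These directions depend in part on scaling. On TPM as deposited (limma on log2(TPM + 1)), the median of all genes tested moved to -0.59 against high and -0.67 against low cells, from 0.02 and 0.07 on counts with TMM factors. On that scale 3 of the 10 genes were called higher (*Fgfr1*, *Fgfr4*, *Spry1*) and 2 lower (*Fgfrl1*, *Spred2*) against low cells. Of all 12614 genes tested, 1592 were called higher and 6008 lower there. *Spred2* was then at -0.87 (adjusted p = 0.0042, limma), which is -0.20 relative to the median of all genes. *Spry4* was no longer called against high (0.77, adjusted p = 0.0213) or low cells (0.79, adjusted p = 0.0181), nor were *Spry2* (0.21, adjusted p = 0.0884) and *Spred1* (0.33, adjusted p = 0.0986) against low cells. Relative to the median of all genes, *Spry1* was at 2.72 and 2.93, *Fgfr1* at 1.81 and 1.74, *Fgfr4* at 1.56 and 1.81, *Spry4* at 1.36 and 1.46, *Spred1* at 1.53 and 1.00, *Spry2* at 0.54 and 0.88 and *Fgfrl1* at -1.54 and -1.19 against high and low cells. With TMM factors applied to TPM, the same 6 genes were called higher and *Fgfrl1* lower in both comparisons. *Fgfr1*, *Fgfr4*, *Spry1* and *Fgfrl1* were called in the same direction in all 22 alternatives in both QSCs comparisons.

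**Figure D3:**
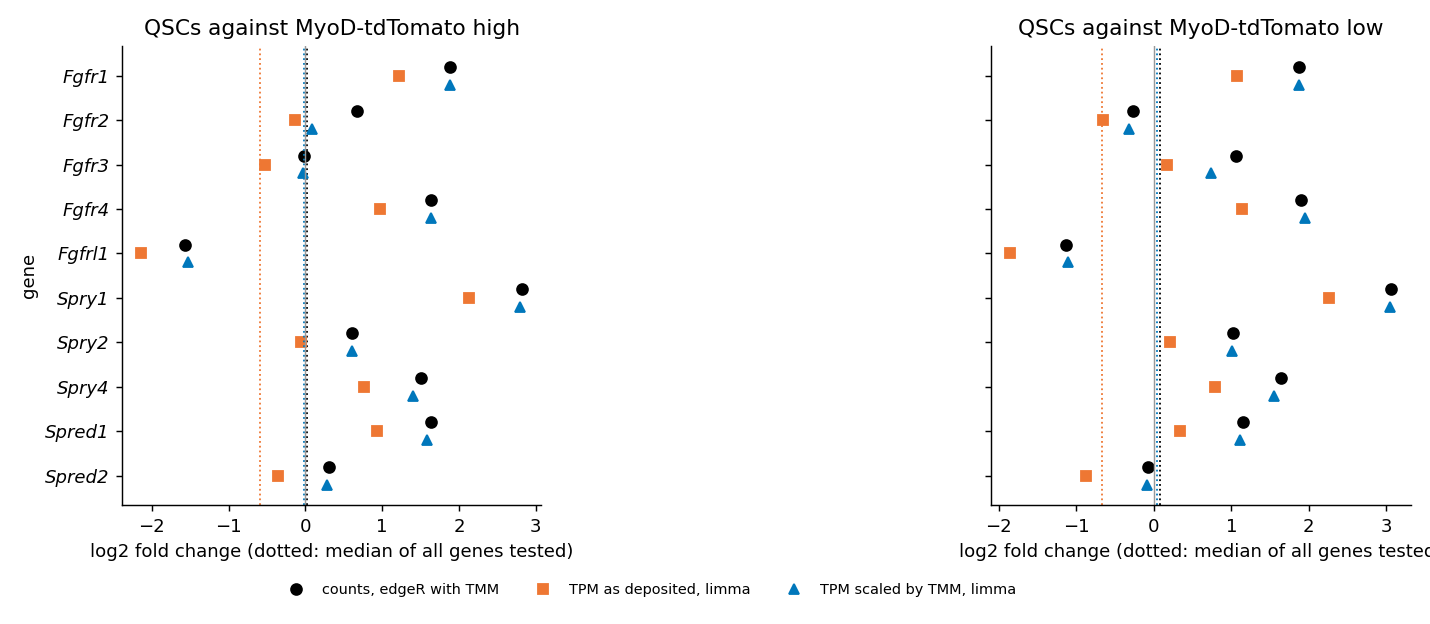
Log2 fold changes of the 10 genes in both QSCs comparisons from counts with TMM factors, from TPM as deposited and from TPM scaled by TMM factors, with dotted lines for the median of all genes tested on each scale. On TPM as deposited the medians lie at -0.59 and -0.67 and the genes shift with them, so that *Spry2* against high cells lies at -0.052.

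Shares within a library do not depend on how libraries are scaled. *Fgfr4* made up 57.6%, 53.6% and 58.1% of the summed TPM of the 4 kinase receptors in QSCs, 60.4%, 48.5% and 55.5% in low libraries and 60.8%, 59.3% and 59.8% in high libraries. *Fgfr1* made up nearly all of the rest, at 37.7% to 49.9% over the 9 libraries. The balance between these receptors overlapped between QSCs and low cells. It did not overlap between QSCs and high cells, where *Fgfr1* was at 41.3% to 45.7% and 37.7% to 39.0%. The sum of the 4 receptors was 495 to 667 TPM in QSCs and 220.3 to 323 TPM in cultured libraries.

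The makeup of the inhibitors differed more. *Spry1* made up 42.1%, 41.2% and 42.2% of the summed TPM of the 5 inhibitors in QSCs, 19.1%, 10.9% and 12.1% in low libraries and 17.6%, 13.4% and 14.1% in high libraries. *Spry2* went the other way, at 32.9% to 35.2% in QSCs, 46.8% to 48.4% in low and 56.7% to 57.6% in high libraries. QSCs held more *Spry1* than *Spry2*, at a ratio of 1.28, 1.17 and 1.197, and all cultured libraries held less, at 0.232 to 0.395. *Spred1* exceeded *Spred2* in QSCs at a ratio of 1.98, 2.40 and 1.26, and *Spred2* exceeded *Spred1* in all cultured libraries, at 0.610 to 0.926. With 3 libraries against 3, an exact permutation test of such a ratio cannot give a two-sided p below 0.1. The 5 inhibitors summed to 267 to 349 TPM in QSCs and 183 to 198 TPM in cultured libraries, a ratio to the 4 receptors of 0.523 to 0.540 in QSCs and 0.565 to 0.892 in cultured libraries.

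**Figure D4:**
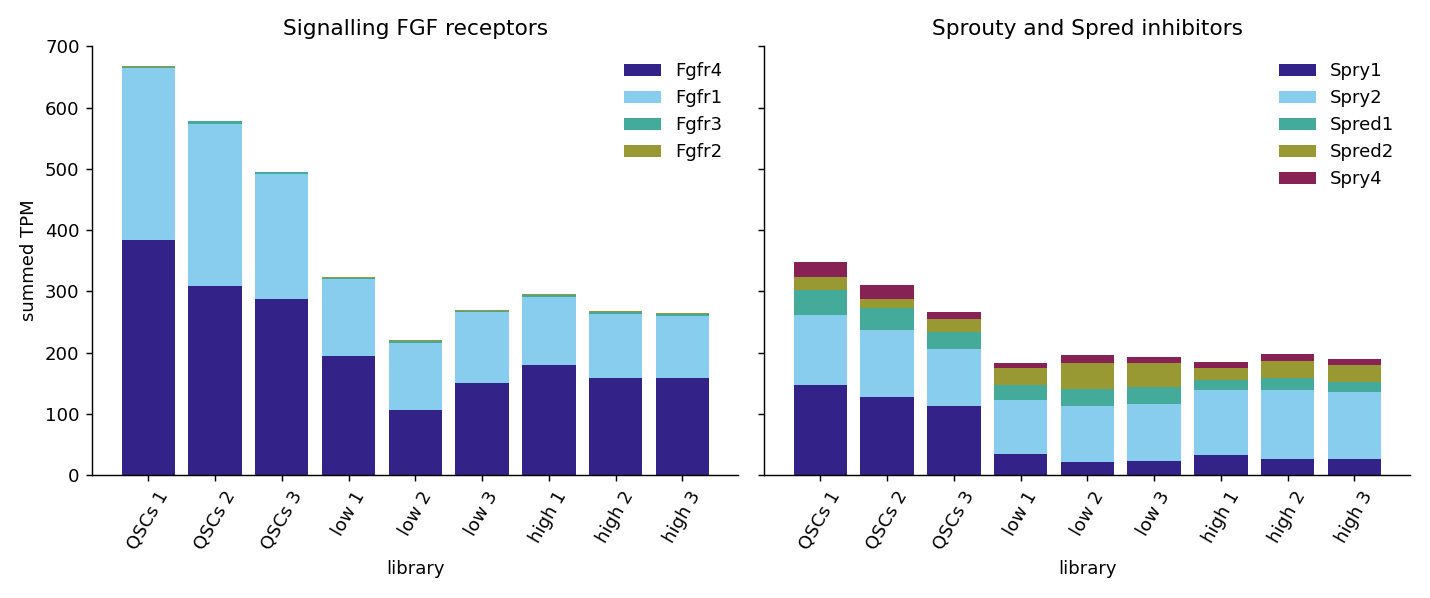
Summed TPM of the 4 kinase receptors (left) and of the 5 inhibitors (right) in each library, stacked by gene. Receptors sum to 495 to 667 TPM in QSCs and 220.3 to 323 in cultured libraries, and *Spry1* is the part of the inhibitors that is largest in QSCs, at 41.2% to 42.2%.

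To ask whether the genes differ with MyoD-tdTomato level, low cells were set against high cells. Of the 10 genes, 0 were called higher and 0 lower by edgeR, where 1.23% of all genes tested were called higher and 3.88% lower. At an unadjusted p under 0.05 there were 3, where 23.5% of all genes tested passed it, and DESeq2 called 0. The groups did not overlap in CPM for 4 of the 10 genes, *Fgfr3*, *Fgfrl1*, *Spry2* and *Spred1*, where 46.1% of all genes tested did not overlap. Both counts are close to the shares of all genes. The median log2 fold change of the 10 genes was -0.19, and that of all genes was -0.0008. The 3 genes with an unadjusted p under 0.05 were *Spred1*, *Spry2* and *Fgfr3*. *Spred1* was at 0.49 ± 0.12 on the log2 scale (adjusted p = 0.0261, edgeR), *Spry2* was at -0.40 ± 0.10 (adjusted p = 0.0204) and *Fgfr3* at -1.08 ± 0.31 (adjusted p = 0.0475). *Fgfr3* was called lower in a fit of only low and high libraries (-1.05, adjusted p = 0.0070) and in the same fit with the replicate number as a block (-1.06, adjusted p = 0.00025). The labels number low and high libraries alike, and libraries of one number deviated together. When all 9 libraries were fitted with that block, none of the 10 genes was called. That fit applies the block to QSCs too, whose numbers do not pair with those of cultured libraries. Without a block, *Fgfrl1* was at -0.43 ± 0.22 (adjusted p = 0.27, edgeR) and *Spred2* at 0.39 ± 0.23 (adjusted p = 0.37). In CPM, *Fgfrl1* was lower and *Spred2* higher in the low library of all 3 numbered pairs. *Fgfr2*, *Fgfr3*, *Spry1*, *Spry2* and *Spred1* also kept the same direction in all 3 pairs. The share of all genes that did so was not counted, so these directions cannot be read as particular to the 10 genes. With only both groups and the block, *Fgfrl1* was at -0.40 ± 0.08 (adjusted p = 0.0013, edgeR), *Spred2* at 0.42 ± 0.07 (adjusted p = 0.00034), *Spry2* at -0.38 ± 0.06 (adjusted p = 0.00041) and *Spred1* at 0.52 ± 0.07 (adjusted p = 0.00010). These 4 passed the adjusted p there and stayed under the fold threshold, so they were not called. That fit called 844 genes higher and 1172 lower of 13502 tested. The share of all genes that passed its adjusted p alone was not counted, so these 4 cannot be read as particular to the 10 genes. *Fgfr1* differed by 0.01 ± 0.11, a sign that turned without MyoD-tdTomato low replicate 1 (-0.071), and *Spry4* by -0.14 ± 0.22, which turned to 0.031 without that library.

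Other genes of the pathway were described from lists of known members. The counts of each list are to be read against the shares of all genes tested, which were 26.4% higher and 24.6% lower in QSCs against high cells, 26.5% and 22.6% against low cells, and 1.23% and 3.88% in low against high cells. Within each list, the genes described are those with the highest mean CPM over all 9 libraries, and all FGF ligands that were called. This CPM does not rank levels between genes. The list of 22 FGF ligands includes intracellular homologues, among them *Fgf11*, *Fgf12* and *Fgf13*. Of the 22, 8 had a count in every library and could be tested. Against high cells, 3 were called higher in QSCs (*Fgf1*, *Fgf2*, *Fgf12*) and 2 lower (*Fgf11*, *Fgf21*). Against low cells, 2 were higher (*Fgf1*, *Fgf12*) and 0 lower. The median log2 fold change of the 8 was 0.34 and 0.90. *Fgf2*, a ligand that keeps cultured myoblasts dividing, was at 16.2, 20.1 and 9.46 CPM in QSCs, 7.43, 8.21 and 6.80 CPM in low libraries and 3.28, 3.11 and 2.36 CPM in high libraries. QSCs lay above both groups, by 2.38 ± 0.32 on the log2 scale against high cells (adjusted p = 7.2e-05, edgeR) and 1.02 against low cells (adjusted p = 0.0123, not called).

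*Fgf1*, the ligand that binds all FGF receptors, was at 2.73, 20.0 and 5.31 CPM in QSCs and at 0.0785 to 0.640 CPM in cultured libraries. *Fgf12*, an intracellular FGF homologue, was at 3.75, 5.83 and 4.48 CPM in QSCs and at 0.0782 to 0.314 CPM in cultured libraries. Both were called higher in QSCs against high cells (adjusted p = 0.00019 and 4.2e-05, edgeR) and against low cells (adjusted p = 0.00078 and 2.9e-05), with cultured counts too few for a useful fold. *Fgf1* against low cells was not called on TPM as deposited (adjusted p = 0.0150). The high *Fgf1* value was in QSCs replicate 2, the library with the most signal in odorant, pheromone and taste receptors. *Fgf13*, also intracellular, was at 7.43, 21.3 and 5.56 CPM in QSCs and peaked in the same library, and was not called in any comparison.

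*Fgf11*, another intracellular homologue, was at 23.3, 24.9 and 21.7 CPM in QSCs, 37.4, 31.9 and 35.05 CPM in low libraries and 64.4, 56.4 and 52.0 CPM in high libraries. The 3 groups did not overlap. It was called lower in QSCs than in high cells (-1.31 ± 0.14, adjusted p = 1.2e-05, edgeR) and lower in low than in high cells (-0.73 ± 0.13, adjusted p = 0.0062), the latter lost without any 1 of the 6 cultured libraries (adjusted p = 0.0173 to 0.0473). *Fgf21*, a circulating FGF also made by muscle, was at 0.818, 2.62 and 0.498 CPM in QSCs, 3.06, 0.355 and 1.85 CPM in low libraries and 21.3, 8.71 and 18.0 CPM in high libraries. High libraries stood above both other groups, which overlapped, and *Fgf21* was called lower in QSCs than in high cells (adjusted p = 0.0017, edgeR).

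Of 15 tested co-receptors and heparan sulfate proteoglycans, 6 were called higher and 5 lower in QSCs against high cells, and 5 and 5 against low cells, with 0 called between low and high cells. *Sdc4* (syndecan-4) had a mean of 2973 CPM (SD 412, n = 3) in QSCs, 88.5 ± 3.73 in low and 76.1 ± 7.03 in high cells, a log2 fold change of 5.29 ± 0.15 against high (adjusted p = 4.0e-09, edgeR) and 5.07 ± 0.15 against low cells (adjusted p = 6.2e-09). The glypican *Gpc1* was the reverse, at 119 ± 12.9 CPM in QSCs, 695 ± 95.9 in low and 804 ± 98.2 in high cells (-2.76 ± 0.15 and -2.55 ± 0.15, adjusted p = 1.0e-07 and 1.8e-07, edgeR). *Hspg2* (perlecan) was at 836 ± 124, 1045 ± 59.4 and 1178 ± 135 CPM and was not called.

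Of 11 tested enzymes that build or trim heparan sulfate, 3 were called higher and 3 lower in QSCs against high cells, 4 and 4 against low cells, and 1 and 1 between low and high cells. *Ndst1*, which starts sulfation of the chain, was at 148 ± 10.9, 136 ± 4.90 and 132 ± 4.96 CPM in QSCs, low and high cells and was not called. *Hs2st1*, a sulfotransferase, was at 66.7 ± 14.4, 122 ± 4.67 and 125 ± 2.82 CPM and was lower in QSCs (-0.90 ± 0.15 against high and -0.87 ± 0.15 against low cells, adjusted p = 0.00029 and 0.00040, edgeR). *Ext2*, which extends the chain, was at 70.6 ± 11.4, 114 ± 11.3 and 99.96 ± 4.65 CPM and was called lower in QSCs against low cells (-0.69 ± 0.13, adjusted p = 0.00099, edgeR), while its fold against high cells was under the threshold (-0.50).

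Of 12 adaptors, 2 were called higher and 0 lower in QSCs in each comparison and 0 between low and high cells. The phosphatase *Ptpn11* was at 163 ± 11.9, 177 ± 10.1 and 218 ± 9.40 CPM in QSCs, low and high cells, *Crk* was at 149.7 ± 24.4, 157 ± 18.6 and 143 ± 6.02 CPM, and *Shc1* was at 155 ± 31.8, 116 ± 3.74 and 94.8 ± 3.96 CPM. *Shc1* was called higher in QSCs than in high cells (0.71 ± 0.14, adjusted p = 0.0012, edgeR), but not on TPM as deposited, where it was at 0.03. Of 11 genes of the Ras to ERK cascade, 1 was called higher and 3 lower in QSCs against high cells, 2 and 3 against low cells, and 0 and 1 between low and high cells. The GTPase *Nras* was at 120.0 ± 15.3, 121 ± 11.4 and 123 ± 8.43 CPM and was not called. *Map2k2* (MEK2) was at 99.035 ± 12.7, 160 ± 9.29 and 192 ± 8.15 CPM and lower in QSCs against high (-0.96 ± 0.11, adjusted p = 2.7e-05, edgeR) and low cells (-0.69 ± 0.11, adjusted p = 0.00030).

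Of 7 other tested inhibitors of the cascade, a further Spred gene among them, 3 were called higher and 2 lower in QSCs against high cells. The counts were 2 and 2 against low cells, and 1 and 0 between low and high cells. *Nf1* (neurofibromin) was at 70.8 ± 7.45, 51.0 ± 7.21 and 50.1 ± 3.73 CPM and not called. The Ras inactivator *Rasa1* was at 71.5 ± 9.52, 178 ± 47.0 and 137 ± 38.3 CPM and lower in QSCs against high (-0.93 ± 0.23, adjusted p = 0.0045, edgeR) and low cells (-1.32 ± 0.23, adjusted p = 0.00056). Against high cells *Rasa1* was not called without QSCs replicate 2 (adjusted p = 0.0173), QSCs replicate 3 (0.0188), or MyoD-tdTomato high replicate 2 (0.0205) or 3 (0.0108). The ERK phosphatase *Dusp4* was at 7.99 ± 4.39, 69.6 ± 18.9 and 70.9 ± 13.7 CPM and lower in QSCs, with log2 fold changes of -3.18 ± 0.39 against high and -3.15 ± 0.39 against low cells (adjusted p = 4.2e-05 and 4.8e-05, edgeR).

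Of 9 genes known to be induced by ERK, 5 were called higher and 3 lower in QSCs in each comparison, and 2 were higher and 0 lower in low against high cells. The median log2 fold change was 2.32 against high and 1.38 against low cells. *Egr1* was at 4015 ± 816, 89.1 ± 35.95 and 80.0 ± 18.9 CPM and *Fos* at 2689.6 ± 360.4, 12.8 ± 7.87 and 7.82 ± 2.78 CPM in QSCs, low and high cells. *Ccnd1* (cyclin D1) went the other way, at 107 ± 6.52, 516 ± 96.8 and 348 ± 96.7 CPM. *Egr1* and *Fos* are also early genes that dissociation of muscle is known to induce. In a list of 10 other genes of that response, 10 of 10 were higher in QSCs in both comparisons, with a median log2 fold change of 6.86 and 6.20, and its summed TPM was 8993 to 12424 in QSCs and 467 to 573 in cultured libraries. *Fosb* was at 5218 ± 912 CPM in QSCs against 4.73 ± 1.64 in low cells, *Zfp36* at 3111 ± 553 against 19.8 ± 6.97 and *Junb* at 2926 ± 546 against 147 ± 16.4. Sprouty, *Spred1* and these genes were higher in the same libraries, and the part of dissociation in the differences was not tested.

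**Figure D5:**
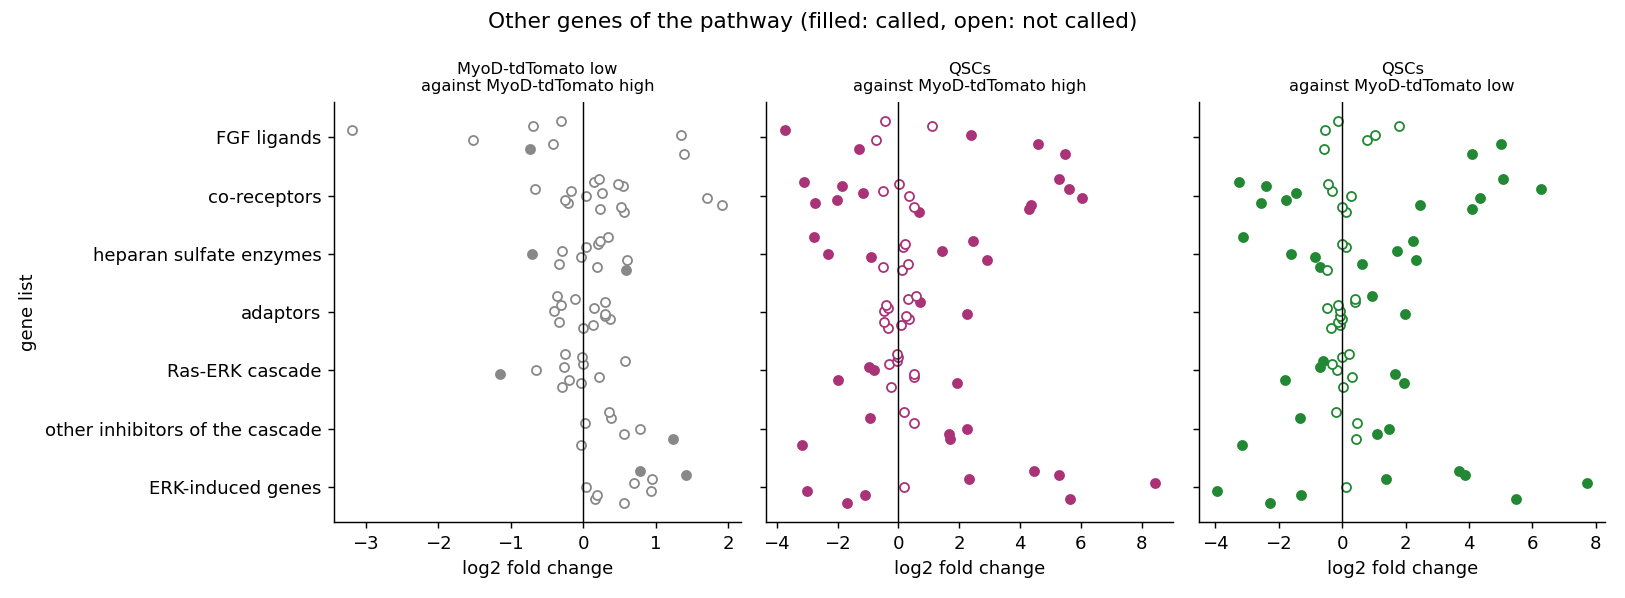
Log2 fold changes of the tested genes of 7 pathway lists in each comparison, with filled points for called genes and open points for genes not called. In the QSCs comparisons the lists hold genes called in both directions except the adaptors, with 2 called higher, and the FGF ligands against low cells, with 2 called higher.

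The genes most like *Fgfr1*, *Fgfr4*, *Spry1* and *Spred1* over the 9 libraries were found by the smallest root mean square difference of centred log2 CPM, among 12373 genes. For *Fgfr1* these were *Rras*, *Dtx3* and *AW549877*, at 0.07, 0.08 and 0.09. For *Fgfr4* they were *Cd200*, *Pink1* and *Foxn3*, at 0.09, 0.13 and 0.15. For *Spry1* they were *Nedd4l*, *Thy1* and *Oplah*, at 0.12, 0.16 and 0.16, and for *Spred1* *Osbpl1a*, *Edem1* and *Lifr*, at 0.09, 0.10 and 0.10. Pearson's r of these pairs was 0.987 to 0.998. Such likeness was common, as 580 to 1451 genes correlated with each of the 4 genes at over 0.95.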

How the data were processed

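RNA sequencing libraries, 9 in all and 3 per group, were grouped and numbered by their labels. Poly(A) RNA was read in pairs of 36 bases, and the authors mapped the reads to GRCm39 with CLC Genomics Workbench 20.0.3 at default settings (annotation version and strand setting not given in the sources used here). The deposited counts are raw, whole numbers per gene. The deposited TPM come from the authors' same mapping and have one total per library. Columns left out were 18 of other per-sample values and 24 that hold the authors' fold changes and p-values.

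For testing, edgeR 4.0.16 (R 4.3.3) was fitted to all 9 libraries by robust quasi-likelihood with TMM factors and a mean for each group. The 12614 genes without a 0 entered, and p was adjusted by Benjamini-Hochberg in every comparison. A call needed an adjusted p under 0.01 together with a change over 1.5-fold. CPM use TMM factors, and TPM were used for levels between genes. Alternatives tried were another tool (DESeq2 1.42.0), other factors (RLE, upper-quartile), other filters (filterByExpr, none), fits of only both groups, a threshold of 0.05 for the adjusted p with no fold, limma 3.58.1 on log2(TPM + 1), log2(TPM + 0.1) and TPM with TMM factors, the replicate number as a block, subtraction of the level of odorant, pheromone and taste receptor genes, and leaving out each library.

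The genes and lists were chosen with earlier results of these data known. The text names all 10 genes, the 3 genes of each list with the highest mean CPM over all 9 libraries with the other FGF ligands called in any comparison, and the 3 genes most like *Fgfr1*, *Fgfr4*, *Spry1* and *Spred1*. *Myod1*, *Pax7*, *Calcr*, *Ptprc*, *Col3a1* and *Sox10* were named from the marker lists after their values were seen. So were all genes of the pericyte and smooth muscle list and of the tenocyte list. Changes of list genes are given mostly where called. The values of 1 gene that this rule names are not reported here. No library duplicated another. Across genes, deviations from the group means correlated at 0.44, 0.43 and 0.18 for low and high libraries of one number and at -0.046 to 0.013 for QSCs with cultured libraries, so the numbers pair low and high libraries only. Depth limits *Fgfr2* and *Fgfr3*, with 2 to 216 counts per library.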

Additional observations from a re-analysis of the deposited data

How the results depend on the processing

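Against high and low cells, *Fgfr1*, *Fgfr4*, *Spry1* and *Fgfrl1* were called in the same direction in all 22 alternatives, as was *Spred1* against high cells. The counts of genes called between low and high cells moved most, from 155 higher and 490 lower to 454 and 752 with DESeq2, 461 and 976 at an adjusted p under 0.05 with no fold threshold, and 844 and 1172 with only both groups and the replicate number as a block. There were 339 higher with only both groups, 279 lower on log2(TPM + 0.1) and 90 higher on TPM with TMM factors. Leaving out 1 library gave 21 to 219 higher and 87 to 662 lower. Of the 10 genes, 1 was called lower with only both groups, with or without the block, and 1 was higher and 2 lower at an adjusted p under 0.05. Fitted to all 9 libraries, the replicate block changed no call of the 10 genes. Numbers do not pair QSCs with cultured libraries, and the block with only the groups compared lost *Spry2* against high cells (0.55). On TPM as deposited, QSCs against high cells gave 1808 higher and 5762 lower genes with a pseudocount of 1 and 1852 and 5699 with 0.1, and QSCs against low cells 1592 and 6008, and 1622 and 5936, with 3 of the 10 genes higher and 2 lower at either pseudocount.

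Signs turned for genes not called and for *Spry2* against high cells. Against high cells they were *Fgfr2* at -0.14 and -0.72, *Spry2* at -0.052 and -0.053 and *Spred2* at -0.36 and -0.38 on TPM with pseudocounts of 1 and 0.1, *Fgfr2* at -0.26 with only both groups and the block, and *Fgfr3* at 0.083 with upper-quartile factors. Leaving out 1 library gave -0.071 to 0.088 for *Fgfr1* and -0.33 to 0.031 for *Spry4* between low and high cells, -1.37 to 1.15 for *Fgfr2* and -0.20 to 0.21 for *Fgfr3* against high cells, and -2.31 to 0.21 for *Fgfr2* and -0.29 to 0.13 for *Spred2* against low cells. *Spred2* turned without QSCs replicate 2 (0.13) or MyoD-tdTomato low replicate 2 (0.012), and *Fgfr2* against low cells also without QSCs replicate 3 (0.15). The share of calls that were higher moved from 51.8% to 23.9% against high cells and from 54.0% to 20.9% against low cells on log2(TPM + 1), and from 24.03% to 41.9% between low and high cells with only both groups and the block. Beyond the fit's own scaling, the cause of these shifts was not tested. Receptor-gene subtraction changed no call of the 10 genes. Depth limits *Fgfr2*, where 2 and 10 counts in QSCs replicates 2 and 3 make differences hard to detect.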

Other observations

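Some called genes of the lists were not among the 3 with the highest mean CPM over all 9 libraries and are given here, chosen after their values were seen. The endosulfatases that trim heparan sulfate parted: *Sulf1* was at 157 CPM in QSCs, 33.4 in low and 28.4 in high cells, and *Sulf2* at 10.05, 86.1 and 68.2 CPM. Their log2 fold changes against high cells were 2.47 ± 0.19 and -2.78 ± 0.27 (adjusted p = 1.4e-06 and 6.5e-06, edgeR). The sulfotransferases *Hs6st2* and *Hs6st1* parted likewise, at 1.44 ± 0.16 and -2.31 ± 0.11 (adjusted p = 2.2e-05 and 6.0e-08). *Hs6st1* was also lower in low than in high cells (-0.71 ± 0.11, adjusted p = 0.0026), and *Ext1* was higher (0.59 ± 0.11, adjusted p = 0.0064).

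Among genes of the Ras to ERK cascade, *Braf* was higher in QSCs than in high cells (78.7 against 20.9 CPM, log2 fold change 1.92 ± 0.16, adjusted p = 1.9e-06, edgeR), while *Hras* (25.4 against 102 CPM, -1.99 ± 0.15, adjusted p = 1.2e-06) and *Map2k1* (77.6 against 137 CPM, -0.82 ± 0.13, adjusted p = 0.00031) were lower. The ERK phosphatase *Dusp6* was at 57.9 CPM in QSCs, 27.0 in low and 18.2 in high cells (1.66 ± 0.14 against high cells, adjusted p = 2.7e-06, edgeR). The ETS factors *Etv4* and *Etv1*, which ERK induces, were lower in QSCs than in high cells (-2.99 ± 0.60 and -1.11 ± 0.18, adjusted p = 0.0011 and 0.00023), where *Myc* (4.48 ± 0.18) and *Ier3* (5.29 ± 0.24) of the same list were higher (adjusted p = 1.7e-08 and 3.5e-08). *Etv5*, also an ETS factor of that list, did not follow *Etv4* and *Etv1*, at 46.8 CPM in QSCs, 42.7 in low and 41.3 in high cells. The scaffold *Ksr1* was lower in low than in high cells (-1.14 ± 0.18, adjusted p = 0.0034, edgeR).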
